A study of Mus musculus with 6 samples.

Results

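The Tudor domain germ granule genes are a set of 10 genes, Tdrd1, Tdrd3, Tdrd5, Tdrd6, Tdrd7, Tdrd9, Tdrd12, Tdrkh, Rnf17 and Stk31, taken by name out of 26567 genes that could be paired with transcripts. They were followed in cap mesenchyme, the mesenchyme that caps the branching ureteric bud in the fetal kidney and holds the nephron progenitors, sorted by flow cytometry from C57BL/6 kidneys at embryonic day 18.5. All 6 libraries carried a Cre recombinase driven by Six2 and a conditional allele of Dnmt1, the enzyme that maintains DNA methylation at replication. In 3 libraries 1 allele was deleted (Dnmt1 +/-, heterozygous here) and in 3 libraries both were (Dnmt1 -/-, knockout here), so there was no group with both alleles intact. Deletion was limited to cells with a history of Six2 expression, and in such bulk samples fewer cells with a transcript cannot be told apart from less transcript per cell.

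The Tudor domain is a small fold that binds methylated arginine or lysine. In germ cells, proteins with several Tudor domains bind the methylated arginines of PIWI proteins and hold them in germ granules, the cytoplasmic bodies in which PIWI-interacting RNAs (piRNAs) are made and transposon transcripts are cut. Many genes of this pathway are silent in somatic cells, with methylated promoters. Tdrd3 and Tdrd7 are the members best known from tissues outside the germ line: Tdrd3 joins a topoisomerase to RNA and to chromatin with methylated arginine, and Tdrd7 is also needed in the lens.

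Promoter windows are shown first because CpG sites are what Dnmt1 methylates. RefSeq windows (GRCm38.p6) running from 250 bases before to 50 after an annotated start were matched for 8 of the 10 members by symbol, with 14 windows among them. There was no matching entry for Rnf17 and Tdrd6. The part before the start is printed 5′ to 3′ for 4 members chosen to contrast responses: Stk31, which rose, Tdrkh, which came close to the threshold, Tdrd12, which was hardly detected, and Tdrd3, whose groups differed by less than their spread. Capitals mark CpG sites.
Stk31: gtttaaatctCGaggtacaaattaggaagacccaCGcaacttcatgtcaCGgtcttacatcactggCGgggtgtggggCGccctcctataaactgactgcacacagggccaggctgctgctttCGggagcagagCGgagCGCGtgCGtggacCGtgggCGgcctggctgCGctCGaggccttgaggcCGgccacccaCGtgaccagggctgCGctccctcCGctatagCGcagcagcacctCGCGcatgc
Tdrkh: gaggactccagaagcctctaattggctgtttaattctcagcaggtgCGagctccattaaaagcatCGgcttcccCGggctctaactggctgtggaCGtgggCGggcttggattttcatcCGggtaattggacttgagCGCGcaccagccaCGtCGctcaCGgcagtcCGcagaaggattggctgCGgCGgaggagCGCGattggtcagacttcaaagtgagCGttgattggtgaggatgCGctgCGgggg
Tdrd12: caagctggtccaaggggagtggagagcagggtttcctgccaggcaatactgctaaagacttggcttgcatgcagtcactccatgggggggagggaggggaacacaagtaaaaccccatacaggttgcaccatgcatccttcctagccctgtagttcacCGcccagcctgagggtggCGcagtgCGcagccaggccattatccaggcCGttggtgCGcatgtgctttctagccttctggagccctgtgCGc
Tdrd3: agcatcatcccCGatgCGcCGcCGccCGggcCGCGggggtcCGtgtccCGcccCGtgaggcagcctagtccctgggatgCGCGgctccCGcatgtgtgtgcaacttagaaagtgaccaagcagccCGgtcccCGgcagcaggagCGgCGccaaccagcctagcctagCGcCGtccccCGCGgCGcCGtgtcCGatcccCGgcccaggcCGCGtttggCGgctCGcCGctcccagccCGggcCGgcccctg

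These stretches lie at chr6:49395289-49395538, plus strand (Stk31), chr3:94412994-94413243, plus strand (Tdrkh), chr7:35537716-35537965, minus strand (Tdrd12) and chr14:87416333-87416582, plus strand (Tdrd3). They hold 21 CpG sites in Stk31, 19 in Tdrkh, 6 in Tdrd12 and 32 in Tdrd3, each over 250 bases. Over the full windows of 300 bases, the ratio of observed to expected CpG was 0.908 and 0.751 for the 2 windows of Stk31, 0.956 for Tdrkh, 1.03 for Tdrd3 and 1.11 for Tdrd5, against a median of 0.384 over 32851 windows. Tdrd12 (0.408 and 0.341) and Tdrd9 (0.430) lay close to that median. Tdrd1 and Tdrd7 each had CpG-rich windows (0.733 and 0.810, and 1.11 and 0.863) and 1 CpG-poor window (0.216 and 0.234). High CpG content was therefore found in a member that rose, in members that did not pass the test and in Tdrd3, whose groups differed by less than their spread.

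**Figure D1:**
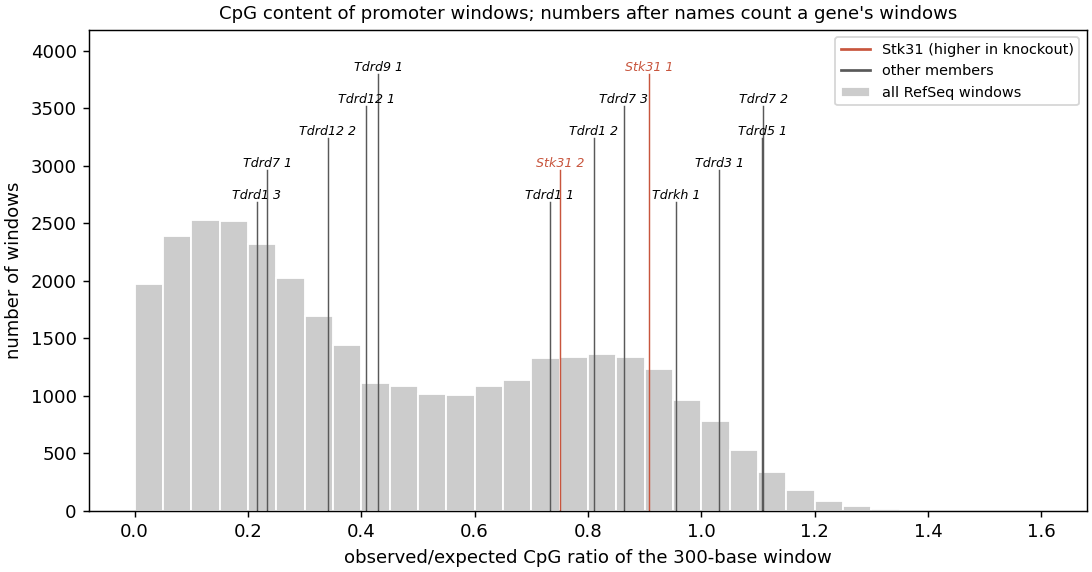
Observed over expected CpG ratio of RefSeq promoter windows (x axis, 300 bases each) and the number of windows (y axis); lines mark the 14 windows of 8 members and the number after a name numbers that gene's windows. Stk31, the called member with an entry, lies in the CpG-rich part with Tdrkh, Tdrd3, Tdrd5 and windows of Tdrd1 and Tdrd7.

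A pair of sequence motifs known from germline promoters were searched on both strands. The E-box CACGTG, a palindrome bound by MAX dimers, was in 5 of the 14 member windows and in 7.15% of all windows of this length. The 5 windows belong to 3 of the 8 members with an entry, Stk31, Tdrd9 (2 matches) and Tdrd1. The matching windows of Stk31 overlap, as do those of Tdrd1. In Stk31 the first base of the E-box is base 196 of the printed stretch. The sequence TCCCGC, the core of E2F sites, was in 2 of the 14 member windows, those of Tdrd3 and Tdrd5, and in 20.0% of all windows. These matches describe the letters of the windows and do not show a bound site.

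Dnmt1, the targeted gene, was at 40.0, 52.4 and 51.7 CPM in heterozygous replicates 1 to 3 and at 20.9, 18.6 and 14.9 CPM in knockout replicates 1 to 3 (CPM, read counts scaled to library size and composition). The log2 fold change was -1.41 ± 0.15 (SE), with an adjusted p = 0.000264 (edgeR, Benjamini-Hochberg over all genes tested), the test used throughout. Y-linked RNA was present in heterozygous replicates 1 and 3 and knockout replicate 2, so each group held both sexes. Libraries held between 46741667 and 61585484 estimated counts. On the CPM scale used here 3 counts, taken as the upper limit for a count of 0, corresponded to 0.0510 to 0.0662 CPM. This is an approximate limit for counting error only. All 10 cap mesenchyme markers were present in every library, at a summed 1711 to 1822 CPM in the heterozygous and 1246 to 1522 CPM in the knockout group, with 2 of 10 called lower (Wt1 and Cited1). Endothelium markers summed to 22.6 to 33.9 CPM in the heterozygous libraries and to 185, 75.5 and 40.0 CPM in knockout replicates 1 to 3, with 1 of 9 called higher and none at 0 in either group. Stroma (228 to 299.5 against 302 to 721 CPM) and ureteric epithelium markers (41.1 to 71.1 against 68.8 to 221 CPM) were also highest in knockout replicate 1, with 0 of 7 and 1 of 8 called. Of 8 germ cell markers 2, Ddx4 and Dnd1, were called higher, 1 was too low to test and none was at 0 throughout a group, with sums of 10.5 to 14.7 CPM against 16.8 to 28.9 CPM. Ddx4, itself a germ granule gene, had enough counts for the test only through the knockout group. Over all genes tested, 4.92% were called higher and 1.92% lower.

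In the knockout, Stk31 and Rnf17 rose and no other member passed the test. Stk31 went from almost nothing to 3.39 CPM and Rnf17 from 2.29 to 10.9 CPM. Tdrkh, Tdrd9 and Tdrd1 were between 1.49 and 1.98 times their heterozygous mean and did not pass. In Tdrd3 and Tdrd7 all knockout libraries lay within the heterozygous range of CPM, Tdrd5 and Tdrd6 were low in both groups, and Tdrd12 was nearly undetected. Of the 10 members, 9 had enough counts to be tested. Of these, 2 were called higher and 0 lower, where 4.92% of 16989 genes tested were called higher and 1.92% lower (edgeR, adjusted p under 0.05). Without adjustment 5 of the 9 had p under 0.05 with a higher knockout, against 12.4% of all genes, and 0 with a lower one, against 9.61%. The groups did not overlap for the same 5, all higher in the knockout, against 14.8% of all genes. The median log2 fold change of the 9 was 0.58, and that of all genes tested was -0.00. Stk31 passed the filter on low counts only through the knockout group, so counts over tested members lean towards rises. The members were also chosen with earlier results of these data known.

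**Figure D2:**
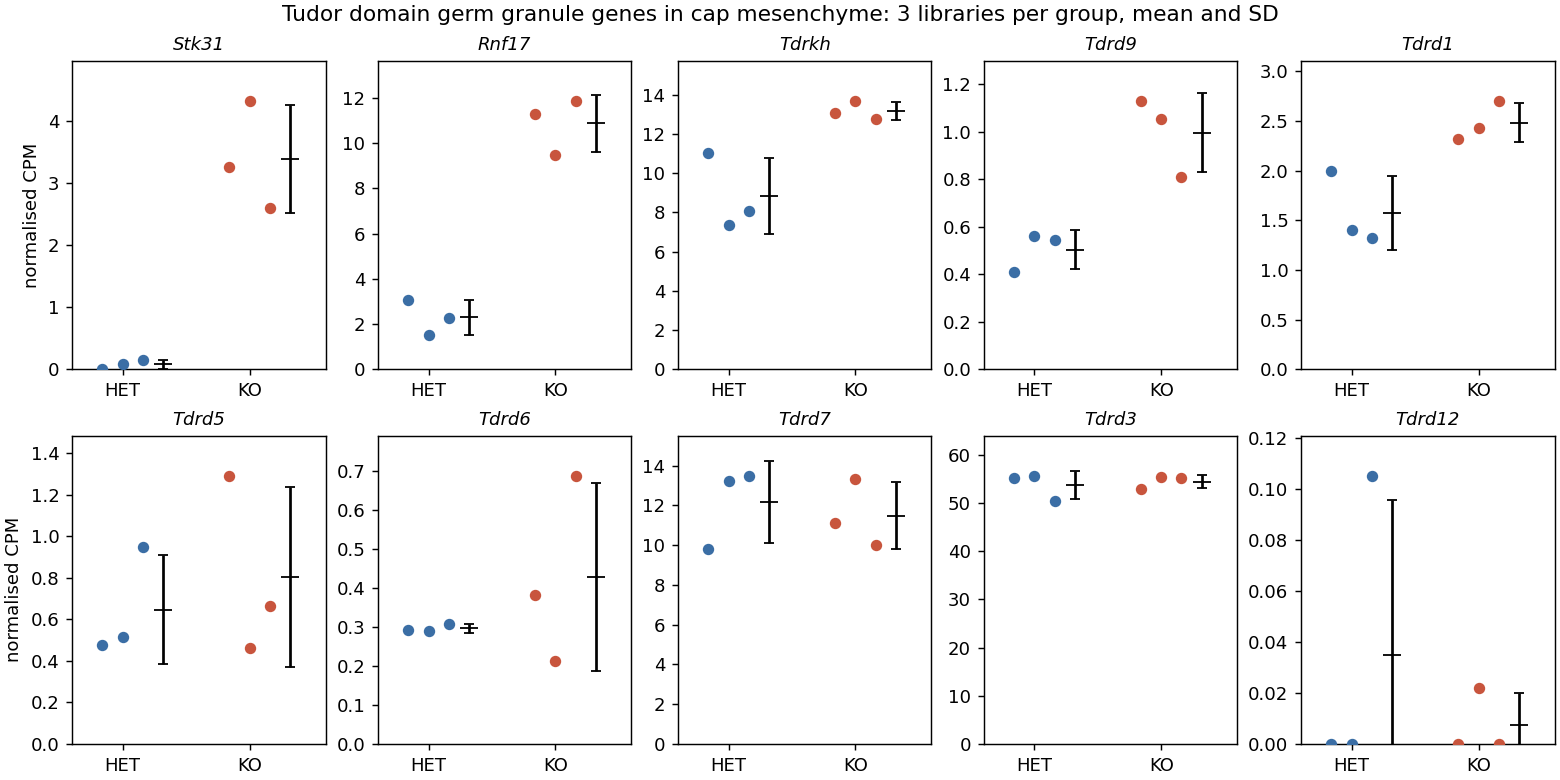
Normalised CPM (y axis, from 0, scaled per gene) of the 10 members in 3 heterozygous (HET) and 3 knockout (KO) libraries; points are libraries in replicate order and bars are mean ± SD. The groups are apart for Stk31, Rnf17, Tdrkh, Tdrd9 and Tdrd1 and overlap for the other 5.

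Stk31 encodes a putative kinase with a Tudor domain that is found in testis germ cells. Its position in NCBIM37 is chromosome 6, 49345603 to 49419500, plus strand. Its estimated counts were 0, 5 and 7 in heterozygous replicates 1 to 3 and 154, 224 and 132 in knockout replicates 1 to 3, that is 0, 0.0851 and 0.154 CPM against 3.27, 4.32 and 2.59 CPM. Every knockout library was far above every heterozygous library, and the heterozygous values were within a few reads of 0. Mean levels were 0.0798 ± 0.0774 and 3.39 ± 0.870 CPM (SD, n = 3 each), so the ratio was 42.5 and the log2 difference 5.40 ± 0.66 (SE; adjusted p by edgeR = 0.00106). The size rests on 12 heterozygous counts: the log2 difference was 6.17 without heterozygous replicate 3 and 4.83 without heterozygous replicate 1.

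Nearly all knockout reads of Stk31 were assigned to 1 transcript of 24 exons. ENSMUST00000024171 (3237 bases) had 149, 220 and 132 estimated counts in the knockout libraries, 97.0% to 100% of the gene's counts there, and 0 in every heterozygous library. Taking 3 counts per heterozygous library as the limit, its estimated counts were at least 59.7-fold higher (edgeR over transcripts, adjusted p = 0.00266). That bound holds only if reads were assigned to the right transcript, and the ratio for the whole gene was 42.5. The few heterozygous reads were placed instead on ENSMUST00000172459 (5 counts in replicate 2) and ENSMUST00000163954 (7 counts in replicate 3), models that start 31 bases downstream and were at 0 in the knockout. The only other gene whose span RefSeq places over Stk31 and that was counted, Gm17060, had 0 to 4 counts per library. With so few heterozygous reads, how they were divided between transcripts that share most exons is uncertain.

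Rnf17, a RING finger protein with several Tudor domains that forms its own granule in male germ cells, was the other member that rose. Its position is chromosome 14, 57021534 to 57143869, plus strand. Estimated counts were 158, 90 and 103 in the heterozygous and 533, 491 and 603 in the knockout libraries, or 3.07, 1.53 and 2.27 against 11.3, 9.47 and 11.8 CPM. Unlike Stk31, Rnf17 was measurable in all 3 heterozygous libraries, and the lowest knockout library was 3.08 times the highest heterozygous one. Mean levels were 2.29 ± 0.771 and 10.9 ± 1.25 CPM (SD, n = 3 each), with a log2 fold change of 2.25 ± 0.26 (SE; adjusted p by edgeR = 0.000392). All counts came from the 1 transcript of the gene that the files and the annotation share, ENSMUST00000095793 (5148 bases, 37 exons), which was called by itself (adjusted p = 0.00742, edgeR over transcripts). RefSeq places 3 genes over the span of Rnf17, Gm18947, Gm24392 and LOC115488392. None of them was counted under that name, and whether their reads entered the counts was not tested.

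Knockout replicate 1, the library with the most endothelium marker RNA, was at 3.27 CPM for Stk31 and at 11.3 CPM for Rnf17. Knockout replicates 2 and 3 were at 4.32 and 2.59 CPM for Stk31 and at 9.47 and 11.8 CPM for Rnf17. Ddx4, on the germ cell list, was at 5.39, 9.82 and 4.99 CPM in knockout replicates 1 to 3. The sum of all germ cell markers, Ddx4 included, was 28.9, 25.0 and 16.8 CPM in the same libraries. The order of the libraries differed between markers of that list, with Kit, for example, at 11.3, 6.71 and 5.21 CPM. The sums of endothelium, stroma and germ cell markers were higher in all knockout than in all heterozygous libraries. Their part in the result for Stk31 and Rnf17 was not tested. Leaving out knockout replicate 1 gave log2 fold changes of 5.43 ± 0.69 and 2.23 ± 0.28 (SE, with adjusted p by edgeR = 0.00128 and 0.000694). Those marker sums were still higher in the remaining knockout libraries, so this fit does not separate other cells from the result. In knockout replicate 3 the stroma sum was 302 CPM, against at most 299.5 CPM in the heterozygous libraries. Its endothelium sum was 40.0 against at most 33.9 CPM, with Emcn at 14.2 against at most 6.14 CPM. Cdh5 and Kdr in that library were not above the heterozygous range, while Tek and Esam were. Its germ cell sum was 16.8 against at most 14.7 CPM, with Ddx4 at 4.99 against at most 0.408 CPM. A higher sum there does not show more of that cell type. Stk31 and Rnf17 both passed the test without each of the 6 libraries in turn. By the distance of log2(CPM + 1) over the 6 libraries, the 3 protein-coding genes nearest to Rnf17, the member with the smallest p, included Zfhx4 (distance 0.749) and Abcb9 (0.762).

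**Figure D3:**
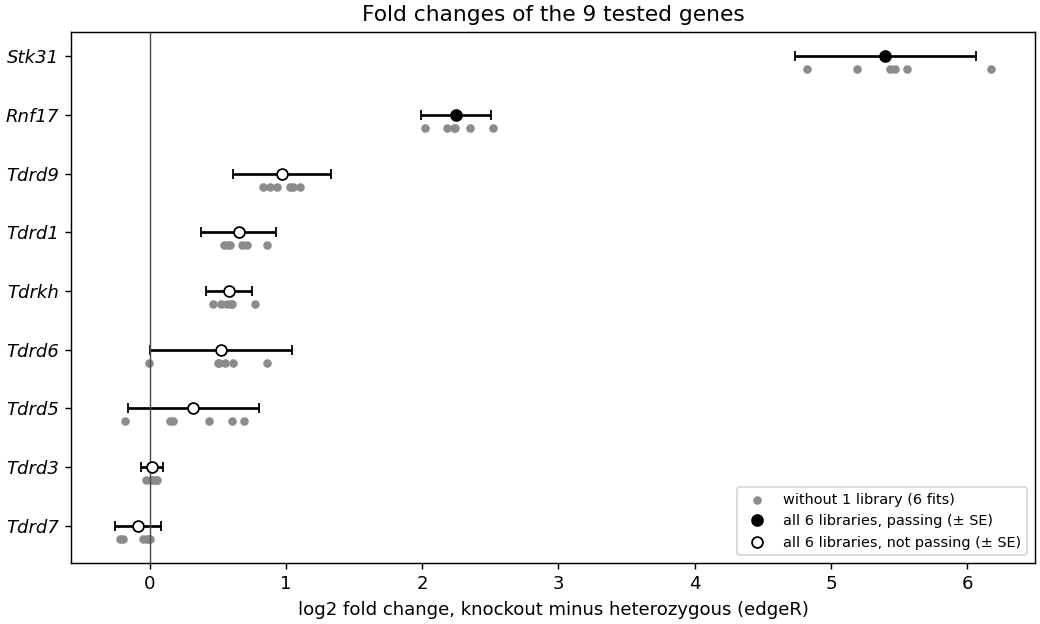
Log2 fold change, knockout minus heterozygous, of the 9 tested members (x axis) with SE bars; filled points passed with edgeR (Benjamini-Hochberg, 0.05) and grey points are the 6 fits without 1 library. Stk31 at 5.40 and Rnf17 at 2.25 are apart from 0 in every fit, while Tdrd6, Tdrd5, Tdrd3 and Tdrd7 cross it.

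Tdrkh encodes a mitochondrial protein with KH and Tudor domains that takes part in trimming piRNA ends. Its position is chromosome 3, 94217218 to 94236555, plus strand. It was at 11.01, 7.36 and 8.07 CPM in the heterozygous and at 13.1, 13.7 and 12.8 CPM in knockout replicates 1 to 3. The groups did not overlap, but heterozygous replicate 1 lay nearer to the knockout libraries than replicates 2 and 3 did. Mean levels were 8.82 ± 1.94 and 13.2 ± 0.451 CPM (SD, n = 3 each), and the log2 fold change of 0.58 ± 0.17 did not pass (SE; adjusted p by edgeR = 0.0730). Over all 18 alternatives the adjusted p ran from 0.0116 to 0.213, and Tdrkh passed in 3 of them: without heterozygous replicate 1 (log2 fold change 0.77, adjusted p = 0.0158), with effective-length offsets (0.77, adjusted p = 0.0116) and with DESeq2 (0.59, adjusted p = 0.0171).

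The estimated difference in Tdrkh was larger on its shorter transcript, but the difference between its 2 transcripts was not tested. ENSMUST00000045245 (2642 bases, 13 exons) was at 1.37, 2.07 and 2.51 CPM in the heterozygous and at 5.06, 5.59 and 4.20 CPM in the knockout libraries, a log2 fold change of 1.32 ± 0.27 that did not pass over transcripts (SE; adjusted p by edgeR = 0.0774). ENSMUST00000166032, with 14 exons and a length of 5692 bases in the files against 3634 in the annotation used here, had 8.47, 4.66 and 4.88 CPM against 7.32, 7.62 and 7.74 CPM (log2 fold change 0.33 ± 0.25, SE; adjusted p = 0.619). The shorter transcript took 13.9%, 30.7% and 34.0% of the gene's counts in the heterozygous and 40.9%, 42.3% and 35.2% in the knockout libraries, and the lowest share was in heterozygous replicate 1. Without that library the log2 fold changes were 1.11 ± 0.23 for the shorter and 0.66 ± 0.16 for the longer transcript (SE), and neither passed. Uncertainty in dividing reads between the transcripts is not part of these tests. In RefSeq the span of Tdrkh overlaps that of Oaz3, an antizyme gene known from sperm formation, and whether reads of Oaz3 entered the counts was not tested.

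**Figure D4:**
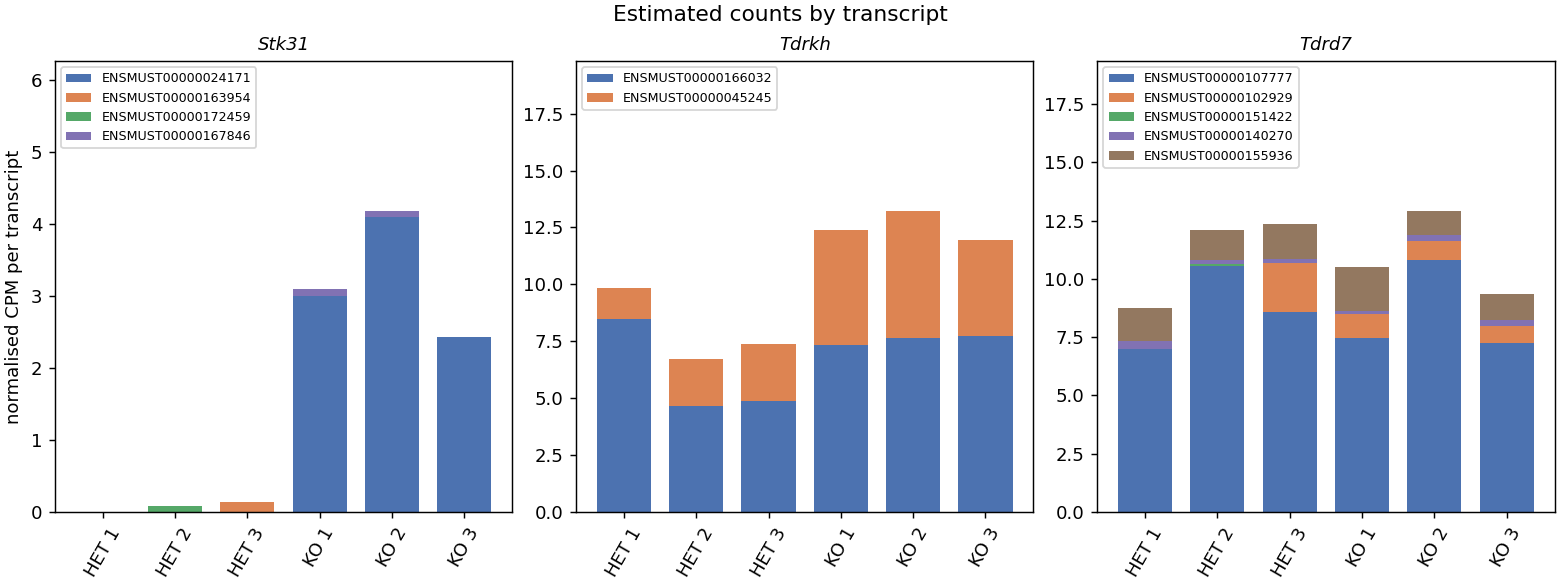
Normalised CPM per transcript (y axis, scaled over all transcripts, so totals differ slightly from the gene values) in the 6 libraries for Stk31, Tdrkh and Tdrd7; colours are transcripts and bar heights their sum. ENSMUST00000024171 of Stk31 is at 0 in all heterozygous libraries, ENSMUST00000045245 of Tdrkh is between 1.37 and 2.51 CPM in the heterozygous and between 4.20 and 5.59 CPM in the knockout libraries, and both main transcripts of Tdrd7 overlap between the groups.

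Tdrd9 and Tdrd1 were low in both groups and somewhat higher in the knockout. Tdrd9, an RNA helicase of the piRNA pathway on chromosome 12 (113209770 to 113307065), had 21.0, 32.9 and 24.7 estimated counts in the heterozygous and 53.2, 54.6 and 41.2 in the knockout libraries. All counts lay on ENSMUST00000079009 (4809 bases), the 1 transcript shared with the annotation. Its means were 0.505 ± 0.0837 and 0.997 ± 0.167 CPM (SD, n = 3 each), and the log2 fold change of 0.97 ± 0.36 did not pass (SE; adjusted p by edgeR = 0.150). Tdrd1, the scaffold that gathers PIWI proteins in the granules of fetal male germ cells, lies on chromosome 19 (56900699 to 56944502). It had 102.8, 82.2 and 59.8 estimated counts against 109.2, 125.9 and 137.3, with means of 1.57 ± 0.372 and 2.48 ± 0.196 CPM (SD, n = 3 each) and a log2 difference of 0.65 ± 0.27 (SE; adjusted p by edgeR = 0.198). For both genes every knockout library was above every heterozygous library, and neither passed under any alternative that could be fitted. For Tdrd1, ENSMUST00000111606 held 66.1% to 100% of the counts in the heterozygous and 79.7% to 87.6% in the knockout libraries, and ENSMUST00000111604 held 0% to 33.9% and 12.4% to 20.3%.

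Tdrd5, Tdrd6 and Tdrd12 stayed near the bottom of the range. Tdrd5, needed for the assembly of germ granules in spermatogenesis, lies on chromosome 1 (158185426 to 158233795), where the annotation used here lists it as a lincRNA. It was at 0.478, 0.513 and 0.948 CPM in the heterozygous and at 1.29, 0.462 and 0.663 CPM in the knockout libraries. These ranges overlapped widely (log2 fold change 0.32 ± 0.48, SE; adjusted p by edgeR = 0.731). ENSMUST00000167528 held 81.4% and 84.1% of its TPM in the heterozygous and knockout groups. ENSMUST00000141760 had 1.96 estimated counts in heterozygous replicate 1 alone and ENSMUST00000121146 had 13.1 in knockout replicate 1 alone. Tdrd6, a large scaffold of the chromatoid body of spermatids on chromosome 17 (43752284 to 43767248), had 15, 17 and 14 estimated counts against 18, 11 and 35. Knockout replicate 2 was below the heterozygous range and replicates 1 and 3 above it, and the log2 fold change of 0.52 ± 0.52 did not pass (SE; adjusted p by edgeR = 0.588). In heterozygous replicates 1 and 3 all its counts lay on ENSMUST00000168073, and in the other libraries ENSMUST00000045717 held 0 to 13.3 estimated counts and ENSMUST00000162232, of 468 bases, at most 1.31. Tdrd12, an RNA helicase with Tudor domains needed for secondary piRNAs, lies on chromosome 7 (36254117 to 36322764). It had, all on ENSMUST00000032701, 4.8 estimated counts in heterozygous replicate 3, 1.1 in knockout replicate 2 and 0 in the other 4 libraries, too few to be tested. Only 2 of its 3 annotated transcripts, of 1620 and 769 bases, had rows in the files, and the one with the longest span had none, so low counts here do not show that the whole gene was silent.

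Tdrd3 and Tdrd7 were expressed in both groups. Tdrd3, on chromosome 14 (87816390 to 87945315), was at 55.2, 55.7 and 50.4 CPM in the heterozygous and at 52.9, 55.4 and 55.2 CPM in knockout replicates 1 to 3. The group means of 53.7 ± 2.95 and 54.5 ± 1.40 CPM (SD, n = 3 each) differed by less than the spread between libraries (log2 fold change 0.02 ± 0.08, SE; adjusted p by edgeR = 0.910), and the sign turned with TPM (-0.11 on the log2(TPM + 1) scale) or with library totals (-0.14), with no call either way. Its 3 main transcripts, ENSMUST00000168275, ENSMUST00000170865 and ENSMUST00000169504, held 45.9%, 42.2% and 9.12% of the gene's TPM in the heterozygous group and 46.5%, 40.4% and 10.1% in the knockout. Tdrd7, on chromosome 4 (45978206 to 46047633), was at 9.78, 13.2 and 13.5 CPM against 11.1, 13.3 and 10.02 CPM, again with overlapping groups (log2 fold change -0.08 ± 0.17, SE; adjusted p by edgeR = 0.810). In TPM, Tdrd7 was at 8.95, 8.97 and 9.12 in the heterozygous and at 9.20, 6.98 and 6.61 in the knockout libraries, all outside the heterozygous range. Tdrd3 in knockout replicate 1 (21.6 TPM) was below the lowest heterozygous library (21.8 TPM).

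Levels can be compared between genes only per length, and TPM (transcript abundance scaled by effective length and library total) was used for that. In the heterozygous group the order was Tdrd3 (23.8 ± 1.81 TPM), Tdrd7 (9.02 ± 0.0931), Tdrkh (2.36 ± 0.394), Rnf17 (0.526 ± 0.201), Tdrd1 (0.375 ± 0.110), Tdrd5 (0.265 ± 0.0783), Tdrd9 (0.122 ± 0.0149), Tdrd6 (0.0745 ± 0.0425), Stk31 (0.0314 ± 0.0302) and Tdrd12 (0.0266 ± 0.0460; SD, n = 3 each). The first 3 were each apart from the next gene in every library, while the ranges of Rnf17, Tdrd1 and Tdrd5 overlapped from one to the next, as did those of Tdrd9, Tdrd6, Stk31 and Tdrd12. In the knockout Stk31 moved from rank 9 to rank 5, at 1.18 ± 0.293 TPM, apart from Rnf17 above it (2.28 ± 0.326) and Tdrd1 below it (0.538 ± 0.0379). For Tdrd7 the TPM value leans on a 2-exon transcript of 525 bases, ENSMUST00000155936, which held 10.7% to 16.2% of the heterozygous counts but 54.0% of the TPM, while the 17-exon transcript ENSMUST00000107777 held 69.7% to 87.4% of the counts and 34.3% of the TPM.

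The proteins that work beside the members in germ granules were described from a list of 16 genes, 15 of which were measured and tested. The list was chosen with earlier results of these data known, so its counts are a description and not independent support. Of these, 10 rose, 0 fell and 5 did not pass (edgeR, Benjamini-Hochberg, 0.05), with a median log2 fold change of 3.71, where 4.92% of all genes tested were called higher and 1.92% lower. Mov10l1, Asz1 and Fkbp6 were at 0 in every heterozygous library, and Mael, Gtsf1 and Ddx4 had at most 24 counts in any of them. All of these called genes passed the filter on low counts only through the knockout group, so this count and median lean towards rises. Gpat2, a mitochondrial acyltransferase of the piRNA pathway, was at 2.26, 2.14 and 1.59 CPM against 71.1, 82.7 and 76.2 CPM (log2 fold change 5.25 ± 0.15, SE; adjusted p by edgeR = 6.01e-09). Mov10l1, the helicase that feeds piRNA precursors into processing, was at 0 in every heterozygous library and at 23.2, 26.2 and 26.1 CPM in knockout replicates 1 to 3, at least 430-fold higher against 3 counts per library (adjusted p = 7.37e-08). Among the other called genes, chosen here after their values were seen, were Piwil2, a PIWI protein bound by Tudor proteins (log2 fold change 3.71 ± 0.21, SE), and Ddx4 (5.03 ± 0.64), a helicase of germ granules that is also on the germ cell marker list. Mael, a granule protein needed for transposon silencing, was also called, with 0, 1 and 0 estimated counts in the heterozygous and 114.6, 219 and 131.9 in the knockout libraries. Piwil1, a PIWI protein of later spermatogenesis, had 0.33 ± 0.48 and Piwil4 had -0.08 ± 0.32 (SE), and neither passed.

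Tudor domain genes with work outside germ granules, most of them readers of chromatin or parts of the splicing machinery, did not pass in any case: of 23 listed, 22 were measured and tested, and 0 were called. Their median log2 fold change was -0.06, and at an unadjusted p under 0.05 there were 7 of 22, 1 higher and 6 lower, against 12.4% of all genes higher and 9.61% lower. Those with the smallest p were Arid4b (-0.32 ± 0.11) and Uhrf1 (0.23 ± 0.08; SE; adjusted p by edgeR = 0.110 and 0.116). Partners of Tudor proteins outside the germ line also gave 0 calls among 7 tested, with 2 at an unadjusted p under 0.05, both lower, and a median of 0.09. These were Fmr1, the fragile X protein (-0.32 ± 0.11), and Top3b, the topoisomerase joined by Tdrd3 (-0.22 ± 0.10; SE; adjusted p by edgeR = 0.129 and 0.222). Prmt5, which makes the methylated arginines that Tudor domains bind, was at 143 ± 6.32 and 154 ± 12.4 CPM (SD, n = 3 each). It did not pass (log2 difference 0.10 ± 0.08, SE; adjusted p = 0.512).

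**Figure D5:**
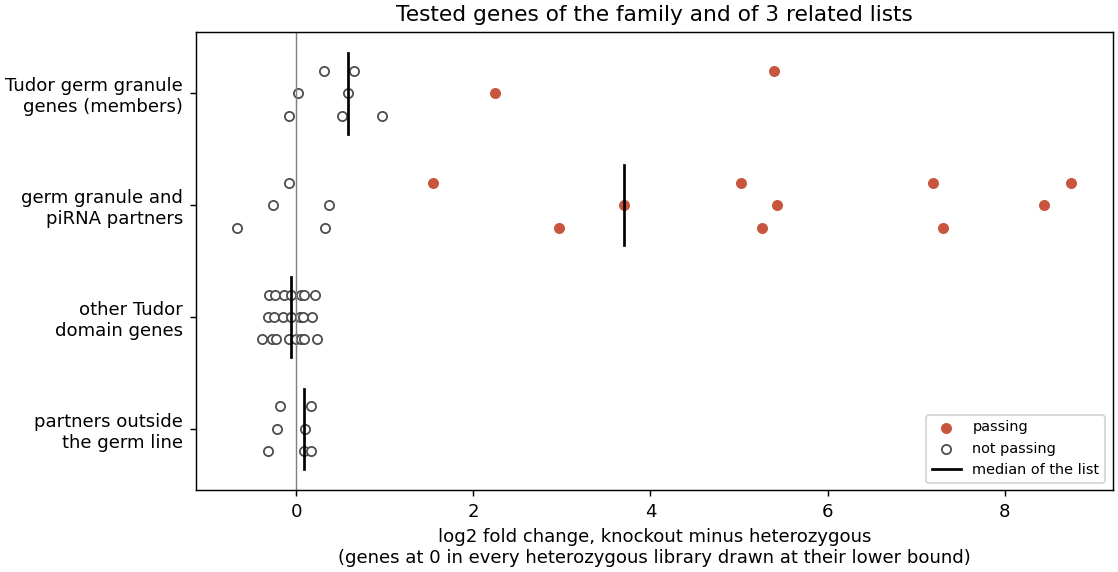
Log2 fold change, knockout minus heterozygous (x axis), of the 9 tested members and of 3 related lists; each point is a gene, filled where it passed, and vertical bars are list medians (0.58, 3.71, -0.06 and 0.09 from top to bottom). Genes at 0 in all heterozygous libraries are drawn at their lower bound.

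Across transcripts, 17 of the 31 member transcripts in the files were tested, and 2 were called higher, those of Stk31 and Rnf17 given above, with 0 lower. Over all 50137 transcripts tested, 1.59% were called higher (edgeR quasi-likelihood test, Benjamini-Hochberg). The annotation used here lists 40 transcripts of the 10 genes, and the other 9 had no row in the files under the same identifier. Transcripts in the files that could not be paired with a gene held 7.18% to 7.60% of the counts, and whether any of them belong to the members was not tested.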

How the data were processed

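RNA-seq libraries from 3 heterozygous and 3 knockout samples were analysed, grouped by the genotype in the labels. Estimated counts, TPM and effective lengths per transcript are kallisto output deposited by the authors, per the file headers. The submitters' processing notes name mm10 as the build. No kallisto version, index, trimming step or strand setting was given in the sources used here. The labels do not say that the samples came from separate embryos, so p-values measure the spread between these samples.

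Transcripts were paired with genes through GENCODE vM1 (NCBIM37), which gave 74519 of 96626 transcripts and 26567 genes, and 92.4% to 92.8% of counts. The deposited estimated counts were summed per gene, rounded and tested with edgeR 4.0.16 (R 4.3.3; TMM, default expression filter, robust quasi-likelihood), with Benjamini-Hochberg adjustment over 16989 genes at 0.05. Transcripts were tested the same way over 50137. SE is the size of the log2 fold change over the square root of F. The fit was tested on simulated data. DESeq2 1.42.0 and limma 3.58.1 (voom, and log2(TPM + 1) or log2(TPM + 0.1) on the deposited TPM) were alternatives, with other scalings, filters, effective-length offsets, a sex term, a replicate block and each library left out. NCBIM37 positions and GRCm38.p6 promoter coordinates belong to different builds and were kept apart.

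The members and lists were chosen with earlier results of these data known. All 10 members, Dnmt1, transcripts with at least 10% of a member's TPM, the 2 genes of smallest p in each list and the 3 genes nearest to the member of smallest p were named by rule, except that 1 of the nearest genes is not reported here. Marker lists for cap mesenchyme, endothelium, macrophage, stroma, ureteric epithelium, podocyte, proximal tubule and germ cell were summed as normalised CPM.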

Additional observations from a re-analysis of the deposited data

How the results depend on the processing

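Rnf17 and Stk31 kept their direction and call in every alternative that tested them, 18 for Rnf17 (log2 fold change 1.11 to 2.52) and 16 for Stk31 (1.07 to 6.17), and the lowest values are on the log2(TPM + 1) scale. The number of members called higher was 1 with log2(TPM + 1) and with log2(TPM + 0.1) at a mean TPM of at least 1, where fewer genes were tested and Stk31 was filtered out, and 2 to 3 with a library left out. No member was called lower in any alternative. Over all genes, those called higher numbered 1346 with DESeq2, 442 and 436 with log2(TPM + 1) and log2(TPM + 0.1) at a mean TPM of at least 1, 543 with log2(TPM + 1) unfiltered and 526 to 916 with a library left out, the lowest without knockout replicate 2. Those called lower numbered 586 with DESeq2, 1883 with library totals, 660 and 646 with the 2 filtered TPM settings, 162 with sex as a covariate and 116 to 272 with a library left out; the counts were 170 and 171 without heterozygous replicates 2 and 3 and 116 without knockout replicate 2. The all-gene median log2 fold change was -0.17 with library totals and -0.13 and -0.14 with the filtered TPM settings; the cause of the other shifts was not tested.

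Members that did not pass turned sign in places. Tdrd3 went to -0.14 with library totals, to -0.11 in all 3 TPM settings and to -0.0244 without heterozygous replicate 3 (range -0.0244 to 0.0516 with a library left out). Tdrd5 went to -0.18 without knockout replicate 1 (up to 0.69), Tdrd6 to -0.00225 without knockout replicate 3 (up to 0.86) and Tdrd7 to 0.00589 without knockout replicate 3 (down to -0.22). Tdrkh passed with DESeq2, effective-length offsets and without heterozygous replicate 1. Tdrd12 was too shallow for a test, and low counts limit Tdrd5, Tdrd6 and Tdrd9 too.

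Same-numbered samples did not deviate together (correlations -0.07, -0.03 and -0.05), so the numbers were not taken as pairs. With the replicate block 2 members were called higher and 0 lower, and 707 genes higher and 265 lower. Rnf17 was at 2.29 and Stk31 at 5.49 (edgeR, adjusted p = 0.00132 and 0.0148), and the Stk31 transcript ENSMUST00000024171 no longer passed (adjusted p = 0.0842).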

Other observations

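Marker lists not given above were also summed. Macrophage markers were at 13.3 to 16.9 CPM in the heterozygous and 16.6 to 22.1 CPM in the knockout libraries, with 0 of 8 called. Podocyte markers were at 66.5 to 75.8 against 44.5 to 62.1 CPM, with 2 of 5 called lower. Proximal tubule markers were at 22.9 to 29.7 against 27.4 to 62.7 CPM, with 1 of 5 called higher. Of all genes tested, 4.92% were called higher and 1.92% lower.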
